A study of Homo sapiens with 40 samples.

Results

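The collagen and laminin mRNAs described here are the protein-coding genes named for an alpha chain of a collagen (COL, a number, A, a number) or for an alpha, beta or gamma chain of a laminin (LAMA, LAMB or LAMC and a number). There were 56 of them, 44 collagen and 12 laminin genes. The table of total RNA listed 57939 genes and that of polyA RNA 58336, and both held all 56. The cells were H1, an established line of human embryonic stem cells with a wild-type genotype. They grew on matrigel, an extract that itself contains basement membrane proteins of mouse tumour cells. On day 3 and day 5 they had been in a mesoderm protocol, in serum-containing medium with ascorbic acid, with BMP4 for the first day and bFGF (FGF2) after it, and on day 0 they were undifferentiated. On each day the successive buffers of a fractionation kit gave a membrane extract (ME), a soluble nuclear extract (SNE), a chromatin-bound extract freed with micrococcal nuclease (CBNE), a pellet extract (PE, also called cytoskeletal in the labels) and, from the first buffer, a cytoplasmic extract (CE). INPUT libraries are read here as RNA of whole cells. There were 36 libraries of total RNA, 2 in each of 18 groups, and 4 of polyA RNA from day 0, 2 of the nucleus and 2 of the cytoplasm. Whether the replicates came from separate cultures is not in the labels, and p-values thus reflect the spread of these libraries, which may be technical.

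Collagens are proteins whose chains wind into a triple helix, a fold that needs glycine at regular places, and they are secreted or, in a few members, stay in the cell membrane. Laminins are secreted crosses of an alpha, a beta and a gamma chain that, with the collagen IV network, build the basement membrane, the sheet on which epithelia rest. Both kinds of chain are made at the rough endoplasmic reticulum, where their signal peptides bring the ribosome and its mRNA to the membrane, and collagen chains are hydroxylated there by enzymes that need ascorbic acid. Human embryonic stem cells are known to lay down laminins with the LAMA5 chain and to attach to them through integrins.

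The following stretches of coding sequence show how far the helix repeats differ in base composition, to which the results on CBNE and PE return. Each is the 90 bases in the middle of the coding sequence of one GENCODE 29 transcript, 5′ to 3′, with the glycine codons (GGN in frame) in capitals. COL7A1 lies at chr3:48564073-48595267 on the minus strand and COL9A3 at chr20:62816244-62841159 on the plus strand of GRCh38. COL4A5 lies at chrX:108439844-108697545 on the plus strand and COL11A1 at chr1:102876467-103108872 on the minus strand.
COL7A1: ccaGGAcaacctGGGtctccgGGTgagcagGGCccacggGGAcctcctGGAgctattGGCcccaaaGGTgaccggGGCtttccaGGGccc
COL9A3: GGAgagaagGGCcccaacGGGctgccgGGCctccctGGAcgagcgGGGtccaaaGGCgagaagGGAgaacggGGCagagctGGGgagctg
COL4A5: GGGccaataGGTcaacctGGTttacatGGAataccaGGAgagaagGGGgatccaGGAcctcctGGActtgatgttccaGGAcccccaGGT
COL11A1: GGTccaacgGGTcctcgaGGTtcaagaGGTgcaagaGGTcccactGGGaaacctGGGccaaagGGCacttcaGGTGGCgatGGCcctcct

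The windows of COL7A1, COL9A3 and COL4A5 held 10 glycine codons each and that of COL11A1 held 11. GC made up 68.9% of the bases in COL7A1, 71.1% in COL9A3, 55.6% in COL4A5 and 62.2% in COL11A1. Over the whole coding sequence, 51.0% of the 627 glycine codons of COL7A1 and 56.2% of the 210 of COL9A3 ended in G or C. In COL4A5 it was 28.5% of 480 and in COL11A1 27.3% of 421. GC content of the representative transcripts of the 56 genes ran from 41.3% to 67.4% with a median of 54.7%, against a median of 50.1% over 15011 protein-coding genes tested. The collagen and laminin transcripts had a median length of 6386 bases, against 3009, and their genes a median of 111 kb of intron, against 26.7 kb.

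The 6 collagen IV genes lie in 3 head-to-head pairs, each transcribed outwards from a shared stretch between the start sites. The stretch between COL4A1 (minus strand) and COL4A2 (plus strand) is printed because these genes changed together by day in INPUT, as given below. In CBNE and PE of day 0 they went apart. It is 126 bases long at chr13:110307158-110307283, read on the plus strand from the RefSeq promoter table (GRCh38.p14). The capitals mark the motifs CCAAT, CCCTCCCC and GGGCGG.
COL4A1 to COL4A2: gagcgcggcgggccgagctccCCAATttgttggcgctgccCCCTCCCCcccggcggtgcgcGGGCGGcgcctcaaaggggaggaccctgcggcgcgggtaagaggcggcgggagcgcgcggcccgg

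Each of the 3 motifs occurred once, on either strand and without overlap, and TATAAA did not occur. Of 35116 RefSeq promoters, the 126 bases before the start held CCAAT in 21.1%, CCCTCCCC in 8.27%, GGGCGG in 34.6% and TATAAA in 5.87%. The stretch between COL4A4 and COL4A3 on chromosome 2 was 418 bases long and that between COL4A6 and COL4A5 on chromosome X was 379. The RefSeq table held a promoter for 41 of the 56 genes.

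What a value stands for differed between the tables and bears on every level given here. TPM are reads per length, scaled so that each library has the same sum. In total RNA, TPM multiplied by the gene's whole span, introns included, gave whole numbers of reads (within 0.05) for 98.6% to 98.9% of low values, and for 15.1% to 27.9% when the summed exons were used. In polyA RNA the exons gave whole reads for 97.5% to 97.7% and the span for 40.2% to 44.6%. A total RNA level is therefore reads from exons and introns over the gene span, a polyA level is reads over the exons, and levels are not compared between these tables. Total RNA values also followed the strand. Of protein-coding genes lying wholly within a gene on the same strand, 93.8% of 601 were at 0 in every library, against 13.0% of 870 within a gene on the other strand and 10.3% of 7107 with no overlap. In polyA RNA these shares were 65.0%, 83.3% and 18.0%. None of the 56 genes had over 10% of its span under a gene on the same strand. COL10A1 (100%), COL4A3 (62.4%), COL18A1 (26.0%), COL9A1 (22.0%), LAMA4 (20.9%), COL16A1 (15.2%) and LAMB1 (10.8%) had over 10% under genes on the other strand, and their polyA values are uncertain for that reason.

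The reads in genes, recovered in the same way, numbered 8604862 to 28535284 in the 24 libraries of INPUT, CE, ME and SNE and 14449226 to 17270368 in the polyA libraries. PE libraries held 474013 to 701897 on day 0, 3152342 to 3588432 on day 3 and 4032783 to 7862412 on day 5. CBNE libraries held 522925 to 657367 on day 0, 1551774 to 1835687 on day 3 and 380096 to 499370 on day 5. TPM are shares, so 1 abundant RNA in an extract lowers the others, and in whole cultures fewer cells of a type and less RNA per cell cannot be told apart. In INPUT the summed TPM of 8 pluripotency markers was 3354 to 3366 on day 0, 2074 to 2097 on day 3 and 1558 to 1592 on day 5. SOX2, which lies wholly within a gene on its own strand, stayed under 0.1 TPM. The 8 primitive streak and mesoderm markers summed to 108 to 111 TPM on day 0, 104 to 116 on day 3 and 1353 to 1442 on day 5. Of these 8, 3 averaged at least 1 TPM on day 0, 7 on day 3 and 8 on day 5. Endoderm markers summed to 11.3 to 11.7, 45.0 to 47.2 and 933 to 960 TPM on these days, with TTR under 0.1 throughout. FOXA2 was under 0.1 on days 0 and 3, and 3, 5 and 4 of the 8 endoderm markers averaged at least 1 TPM. Markers of amnion and trophoblast summed to 11.4, 116 to 123 and 746 to 748 TPM, and those of endothelium to 13.6 to 15.3, 48.1 to 54.1 and 27.6 to 28.4 TPM. Of the 8 in each list, 2, 6 and 7 averaged at least 1 TPM for amnion and trophoblast, and 4, 3 and 4 for endothelium. A few markers can carry such a sum. The part of a changing mixture of cell types in the changes by day described next was not tested.

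The collagens and laminins took a larger share of INPUT RNA during differentiation, and fibrillar and collagen IV chains were 9 of the 15 genes that rose by day 3. A call below means an adjusted p under 0.05 (Benjamini-Hochberg over all genes tested, limma on log2(TPM + 1)) with a change of at least 1 log2 unit. In INPUT, 15 of the 51 genes tested were called higher on day 3 than on day 0 and 6 lower, where 4.06% and 3.38% of all 24735 genes tested were called higher and lower. On day 5 against day 0, 12 were called higher and 5 lower, against 6.15% and 6.67% of all genes. The median log2 fold change over the 51 genes was 0.21 on day 3 and 0.23 on day 5, against -0.01 and -0.08 over all genes. Summed over the 56 genes, INPUT held 0.0676% ± 0.00217 of all TPM on day 0, 0.107% ± 0.00376 on day 3 and 0.104% ± 0.00517 on day 5 (SD, n = 2 each). The 51 genes are those with at least 1 TPM in at least 2 of the 36 libraries, so a gene could enter through the group where it was high. COL10A1, COL15A1, COL22A1, COL24A1 and LAMB4 were not tested.

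**Figure D1:**
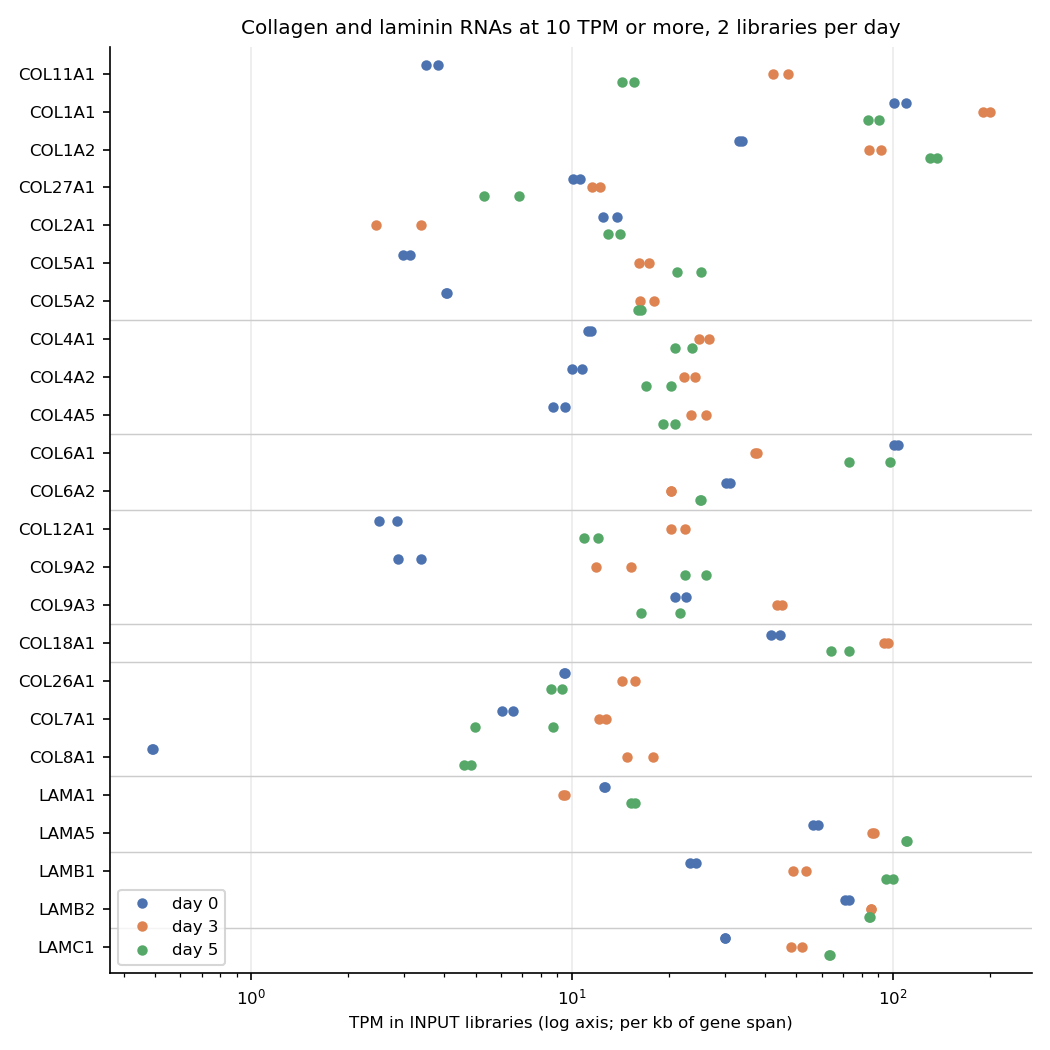
TPM over the gene span (log axis) in each of the 2 INPUT libraries per day of 19 collagen and 5 laminin genes that reached 10 TPM on any day, ordered by family with a grey line between families. COL8A1 and COL11A1 are farthest apart between day 0 and day 3, COL6A1 and COL2A1 dip on day 3, and LAMA5, LAMB1 and LAMC1 are highest on day 5.

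Fibrillar chains, which assemble into the cross-banded fibrils of connective tissue, gave 5 of 10 tested called higher and 1 lower on day 3, and 5 higher and 0 lower on day 5. COL11A1, a chain of the type XI collagen found with type II fibrils, had 3.51 and 3.81 TPM on day 0, 42.4 and 47.0 on day 3 and 14.3 and 15.6 on day 5. Its day 3 libraries stood far above the rest and its day 5 libraries above those of day 0, with 3.29 ± 0.17 log2 units (SE) for day 3 over day 0 and 1.77 ± 0.17 for day 5 over day 0. COL3A1, the type III chain of loose connective tissue, had 0.0870 and 0.0597 TPM on day 0, 3.67 and 4.00 on day 3 and 7.04 and 7.60 on day 5. It was nearly absent on day 0 and higher on each later day. COL5A2, which lies beside it on chromosome 2 on the other strand, had 4.04 and 4.08 TPM on day 0, 16.3 and 18.0 on day 3 and 16.1 and 16.4 on day 5. Its day 3 and day 5 values overlapped, and both days were called over day 0 (1.84 ± 0.23 and 1.76 ± 0.23 log2 units). COL5A1, the partner of COL5A2 in type V collagen, which is known to nucleate fibrils, had 2.97 and 3.13 TPM on day 0, 16.1 and 17.4 on day 3 and 21.2 and 25.2 on day 5. The 3 days did not overlap for COL5A1, and the changes over day 0 were 2.13 ± 0.17 and 2.57 ± 0.17 log2 units.

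The type I chains, which form the commonest collagen of the body, parted after day 3. COL1A2 had 33.1 and 33.7 TPM on day 0, 84.1 and 91.9 on day 3 and 131 and 137 on day 5. It was called higher than on day 0 on both days (1.37 ± 0.15 and 1.97 ± 0.15 log2 units). COL1A1 had 101 and 109 TPM on day 0, 190.4 and 201 on day 3 and 90.3 and 83.7 on day 5. It was highest on day 3 and below its day 0 values on day 5. Its day 3 change over day 0 was 0.89 ± 0.14 log2 units, short of 1, and from day 3 to day 5 it fell by 1.16 ± 0.14 (SE; adjusted p = 7.12e-06, limma, Benjamini-Hochberg). COL2A1, the main chain of cartilage fibrils, ran the other way with 12.5 and 13.8 TPM on day 0, 3.38 and 2.45 on day 3 and 12.9 and 14.1 on day 5. Its day 3 libraries were the lowest and those of days 0 and 5 overlapped, with -1.86 ± 0.23 log2 units for day 3 over day 0 and 1.90 ± 0.23 for day 5 over day 3. COL27A1, a fibrillar chain with a shortened helix, had 10.1 and 10.6 TPM on day 0, 11.5 and 12.2 on day 3 and 5.33 and 6.81 on day 5 and passed no call in INPUT.

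Of the 6 collagen IV chains, 4 were called higher on day 3 than on day 0 and 0 lower. COL4A1, which with COL4A2 makes the network found in nearly all basement membranes, had 11.2 and 11.4 TPM on day 0, 24.9 and 26.7 on day 3 and 21.0 and 23.6 on day 5. COL4A2 had 10.0 and 10.7 TPM on day 0, 22.3 and 24.2 on day 3 and 17.0 and 20.4 on day 5. Both had day 0 libraries below all later ones, by 1.12 ± 0.22 log2 units on day 3 for COL4A1 and 1.10 ± 0.11 for COL4A2, and neither reached 1 log2 unit on day 5. COL4A5, a chain of the kidney basement membrane that also occurs in other epithelia, had 8.73 and 9.47 TPM on day 0, 23.4 and 26.1 on day 3 and 19.2 and 20.9 on day 5. COL4A6, its head-to-head partner, had 2.62 and 3.02 TPM on day 0, 7.64 and 8.54 on day 3 and 8.36 and 8.89 on day 5. Both were called on both days, at 1.35 ± 0.15 and 1.06 ± 0.15 log2 units for COL4A5 and 1.25 ± 0.15 and 1.33 ± 0.15 for COL4A6. In the remaining pair, known from the glomerulus, COL4A3 had 0.684 and 0.820 TPM on day 0, 0.330 and 0.320 on day 3 and 0.0626 and 0.108 on day 5. COL4A4 had 1.38 and 1.43 TPM on day 0, 0.709 and 0.793 on day 3 and 0.174 and 0.237 on day 5. Values were lower on each later day without overlap in both, but neither was called on the log2(TPM + 1) scale, which draws genes near 1 TPM towards 0.

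The pairs kept their proportion to different degrees. Over the 24 libraries of INPUT, CE, ME and SNE the ratio of COL4A1 to COL4A2 ran from 0.739 to 1.40 with a median of 1.20. In SNE, COL4A2 was the higher of the pair on day 0 and day 5 and COL4A1 on day 3. The ratio of COL4A5 to COL4A6 ran from 1.66 to 4.62 with a median of 3.05. The ratio of COL4A4 to COL4A3, taken between group means because COL4A3 came near 0, ran from 1.57 to 9.77. The values include intronic reads, so these are not ratios of mature mRNA.

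**Figure D2:**
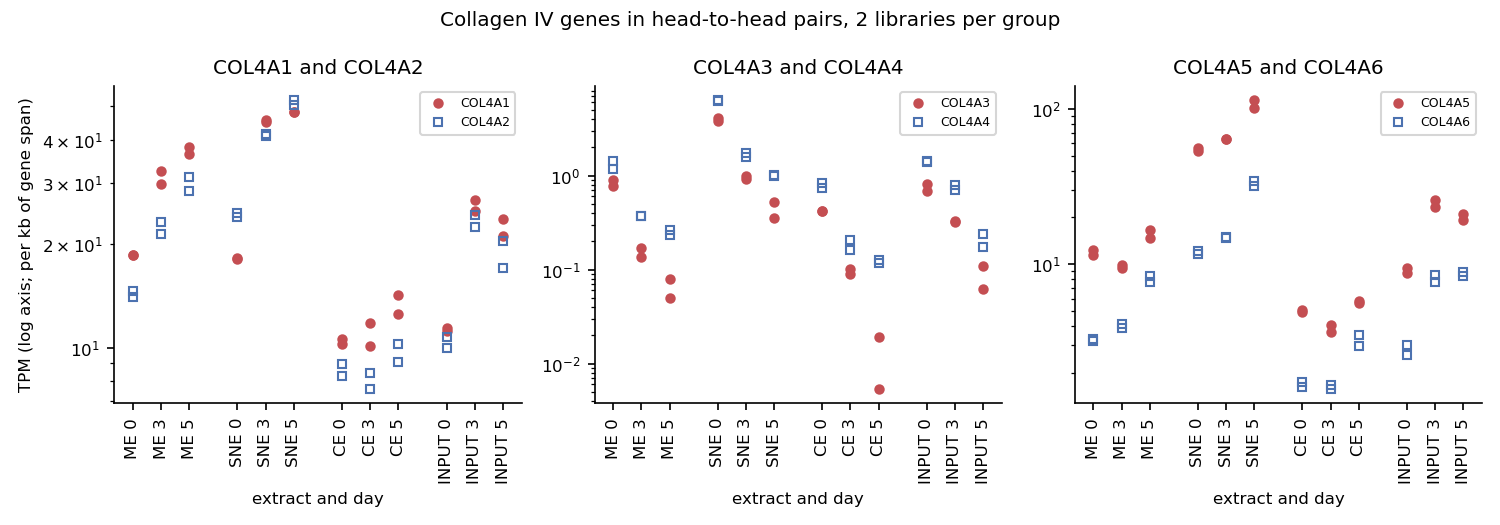
TPM over the gene span (log axis) of the 3 head-to-head pairs of collagen IV genes in each of the 2 libraries per extract and day, filled circles for the first gene of a pair and open squares for the second. In INPUT, CE, ME and SNE, COL4A1 and COL4A2 lie close in every group, COL4A5 lies above COL4A6 throughout, and COL4A3 and COL4A4 are lowest on day 5.

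Collagen VI chains, which form beaded microfilaments beside the cell, passed no call upwards against day 0. COL6A1 had 100.4 and 104 TPM on day 0, 37.7 and 37.2 on day 3 and 72.9 and 98.1 on day 5. Its day 3 libraries were the lowest, with -1.42 ± 0.12 log2 units against day 0 and 1.15 ± 0.12 for day 5 against day 3. The day 5 call was lost when only the groups compared entered the fit (adjusted p = 0.0626, limma, Benjamini-Hochberg) and without the second day 5 library (0.94). COL6A2, which lies beside COL6A1 on chromosome 21, had 31.0 and 30.2 TPM on day 0, 20.3 and 20.3 on day 3 and 25.1 and 25.2 on day 5, with day 3 again lowest and no call. COL6A3 had 1.21 and 1.23 TPM on day 0, 0.903 and 0.921 on day 3 and 2.05 and 2.50 on day 5, also without a call. Type IX chains, which sit on the surface of type II fibrils, went different ways. COL9A2 had 3.38 and 2.87 TPM on day 0, 11.8 and 15.2 on day 3 and 22.6 and 26.1 on day 5, and rose on both days (1.81 ± 0.14 and 2.62 ± 0.14 log2 units). COL9A1 had 4.66 and 5.20 TPM on day 0, 2.54 and 2.66 on day 3 and 0.605 and 0.582 on day 5, and fell by day 5 (-1.89 ± 0.20). COL9A3, with 20.9 and 22.6 TPM on day 0, 45.2 and 43.6 on day 3 and 16.4 and 21.7 on day 5, was highest on day 3, and its day 5 values overlapped those of day 0. Its fall after day 3 (-1.19 ± 0.14) was lost with only the groups compared in the fit (adjusted p = 0.0534, limma, Benjamini-Hochberg), and without the first day 5 library it was -0.998, just short of 1.

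COL8A1, a short network-forming chain known from vessels and the cornea, had 0.494 and 0.490 TPM on day 0, 14.8 and 17.9 on day 3 and 4.59 and 4.85 on day 5. Day 3 was highest and no groups overlapped, at 3.53 ± 0.19 log2 units for day 3 over day 0 and 1.94 ± 0.19 for day 5 over day 0. COL12A1, which decorates type I fibrils, had 2.86 and 2.51 TPM on day 0, 20.3 and 22.5 on day 3 and 10.9 and 12.00 on day 5. Day 3 was again highest, and both days were called (2.60 ± 0.14 and 1.76 ± 0.14). COL18A1, the source of the endostatin fragment, had 41.8 and 44.5 TPM on day 0, 93.4 and 96.4 on day 3 and 64.1 and 73.2 on day 5, and was called on day 3 (1.12 ± 0.15). COL17A1, a transmembrane chain of hemidesmosomes, was also called on day 3 (1.74 ± 0.18), at 2.94 and 3.51 TPM, against 0.275 and 0.252 on day 0. COL7A1, the chain of anchoring fibrils, had 6.05 and 6.52 TPM on day 0, 12.8 and 12.1 on day 3 and 4.99 and 8.73 on day 5, and passed no call. COL26A1 had 9.47 and 9.47 TPM on day 0, 14.3 and 15.7 on day 3 and 8.57 and 9.31 on day 5, and COL16A1, of the FACIT family that binds to fibrils, 2.49 and 3.17 TPM on day 0, 4.83 and 5.57 on day 3 and 4.13 and 4.80 on day 5. Neither was called. Of the genes that fell, COL14A1, a relative of COL12A1, had 4.18 and 4.29 TPM on day 0, 0.653 and 0.627 on day 3 and 0.281 and 0.298 on day 5. The transmembrane chain COL23A1 had 4.94 and 5.89 TPM on day 0, 1.49 and 1.62 on day 3 and 0.770 and 1.06 on day 5. COL8A2, the partner of COL8A1, had 2.15 and 2.91 TPM on day 0, 0.551 and 0.523 on day 3 and 0.279 and 0.233 on day 5. All 3 were called lower on both days, and their day 0 libraries stood above every later one.

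Among the laminins LAMB1 and LAMC1 rose and LAMC3 fell, and the alpha chains passed no call in INPUT. LAMB1 had 23.2 and 24.3 TPM on day 0, 48.8 and 53.6 on day 3 and 95.0 and 100.1 on day 5. The days did not overlap, and the change over day 0 was 1.07 ± 0.11 log2 units on day 3 and 1.99 ± 0.11 on day 5. LAMC1, the common gamma chain, had 29.9 and 29.9 TPM on day 0, 48.2 and 51.9 on day 3 and 63.3 and 63.4 on day 5, and was called on day 5 (1.06 ± 0.15). LAMA5, the alpha chain of the laminins of stem cell matrix, had 56.4 and 58.3 TPM on day 0, 87.2 and 85.8 on day 3 and 109.9 and 110.4 on day 5. Its days were separate, with a day 5 change of 0.93 ± 0.12 log2 units, under 1. LAMB2, another beta chain that pairs with LAMA5, had 70.6 and 73.0 TPM on day 0, 85.1 and 85.1 on day 3 and 84.5 and 84.1 on day 5, and passed no call. LAMA1, the alpha chain of the laminin of early embryos, had 12.6 and 12.7 TPM on day 0, 9.39 and 9.50 on day 3 and 15.3 and 15.7 on day 5, and was lowest on day 3, as COL6A1 and COL2A1 were. LAMC3 had 6.91 and 7.41 TPM on day 0, 2.70 and 2.52 on day 3 and 1.30 and 1.08 on day 5, and was called lower on both days (-1.18 ± 0.13 and -1.90 ± 0.13). LAMA2, the alpha chain of muscle, had 2.17 and 2.30 TPM on day 0, 1.27 and 1.30 on day 3 and 0.683 and 0.783 on day 5. Both had their highest values on day 0. The adjusted p of the called genes was 1.13e-11 to 7.50e-04 on day 3 and 1.10e-11 to 2.95e-05 on day 5 (limma, Benjamini-Hochberg).

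The extracts of the same days gave like changes for 12 of these genes. In ME, 14 genes were called higher on day 5 than on day 0 and 6 lower (8.59% and 8.66% of all genes), and in CE 7 higher and 5 lower (4.41% and 9.98%). With a common median, which moved the median of all genes by 0.48 log2 units, CE gave 12 higher and 4 lower, and with totals without mitochondrially encoded and structured RNA (-0.30) ME gave 11 and 10. These counts under other scalings stand without the share of all genes called. COL3A1, COL9A2, COL5A1, COL1A2, COL5A2, LAMB1 and COL11A1 were called higher in INPUT, ME and CE, although COL11A1 in CE came to 0.99 without the second day 5 library. COL8A2, COL14A1, COL9A1, LAMC3 and COL23A1 were called lower in all 3. LAMC1 had 92.6 and 93.5 TPM on day 5, against 33.1 and 36.9 on day 0 in ME, and 44.3 and 48.7 on day 5, against 31.6 and 32.3 on day 0 in CE. It was called in ME (1.39 ± 0.15 log2 units) and not in CE (0.53 ± 0.15). Between day 5 and day 3 in INPUT, 2 genes were called higher and 5 lower (2.49% and 2.32% of all genes). Beside COL1A1 and COL9A3, those lower on day 5 were COL11A1 (-1.52 ± 0.17), COL8A1 (-1.59 ± 0.19) and COL9A1 (-1.18 ± 0.20).

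The collagen and laminin mRNAs were higher in the membrane extract than in the cytoplasmic extract, and 0 of them was called lower. In ME against CE, 5 of 51 genes were called higher on day 0, 17 on day 3 and 12 on day 5, where 1.41%, 1.00% and 1.69% of all genes were called higher. Of all genes 15.2%, 6.82% and 6.40% were called lower on these days. The fold change was above 0 in 44, 51 and 48 of the 51, with medians of 0.34, 0.62 and 0.52 log2 units, against -0.11, 0 and 0 over all genes. All 56 genes together took 0.0970% ± 0.00395 of ME and 0.0682% ± 0.00148 of CE on day 0. They took 0.130% ± 0.00899 of ME and 0.0554% ± 0.00465 of CE on day 3, and 0.157% ± 0.00260 of ME and 0.0774% ± 0.00566 of CE on day 5 (SD, n = 2 each). Mitochondrially encoded RNA was abundant in ME, where MT-ND2 alone had 34322 and 39004 TPM, against 818 and 889.6 in CE on day 3. With totals made anew without mitochondrially encoded and structured RNA, the median of all genes moved up by 0.66, 0.45 and 0.46 log2 units. Then 40, 32 and 30 of the 51 were called higher, against 24.1%, 17.0% and 17.2% of all genes. With quantile normalisation 17, 21 and 19 were called, against 6.36%, 2.24% and 2.87% of all genes.

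**Figure D3:**
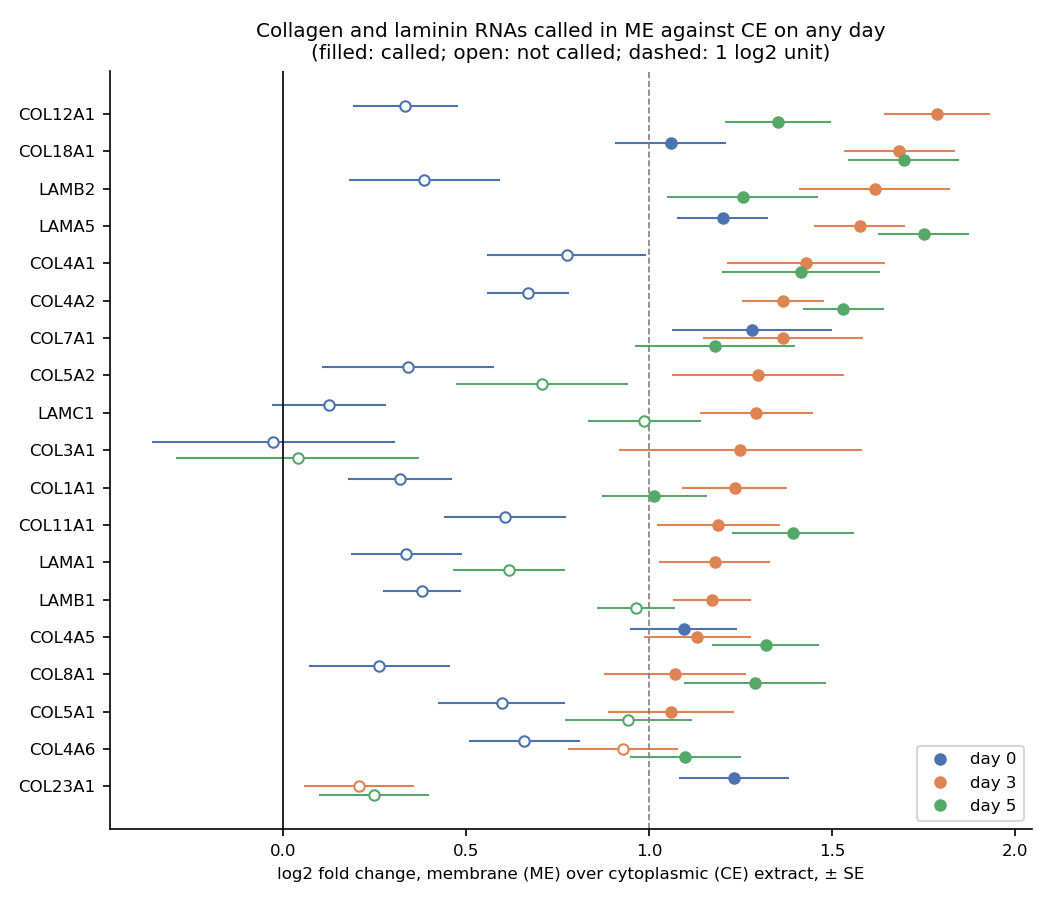
Log2 fold change of ME over CE with its SE on day 0, day 3 and day 5 for the 19 collagen and laminin genes called on any day, filled where called and open where not. LAMA5, COL18A1, COL7A1 and COL4A5 are called on all 3 days, and COL12A1, LAMB2 and LAMC1 lie far lower on day 0 than on days 3 and 5.

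LAMA5, COL18A1, COL7A1 and COL4A5 were called on all 3 days. LAMA5 had 96.3 and 107 TPM in ME on day 0, 95.5 and 87.2 on day 3 and 179.8 and 166 on day 5. Its CE libraries held 42.0 and 45.1 on day 0, 30.3 and 29.6 on day 3 and 47.0 and 54.6 on day 5. Every ME library of LAMA5 stood above every CE library, by 1.20 ± 0.12 log2 units on day 0, 1.58 ± 0.12 on day 3 and 1.75 ± 0.12 on day 5. COL18A1 had 77.0 and 81.3 TPM in ME on day 0, 132 and 123 on day 3 and 128 and 117 on day 5. In CE the values were 37.3 and 37.6 on day 0, 36.2 and 42.0 on day 3 and 34.1 and 40.3 on day 5. The extracts did not overlap, at 1.06 ± 0.15 log2 units on day 0, 1.68 ± 0.15 on day 3 and 1.69 ± 0.15 on day 5. COL7A1 had 8.82 and 9.65 TPM in ME on day 0, 8.48 and 7.51 on day 3 and 5.85 and 6.13 on day 5. CE gave 2.85 and 3.60 on day 0, 2.54 and 2.43 on day 3 and 2.10 and 2.07 on day 5. All of its ME libraries stood above all CE libraries, by 1.28 ± 0.22 log2 units on day 0, 1.37 ± 0.22 on day 3 and 1.18 ± 0.22 on day 5. COL4A5 had 11.4 and 12.3 TPM in ME on day 0, 9.40 and 9.84 on day 3 and 14.8 and 16.7 on day 5. The CE libraries had 4.95 and 5.09 on day 0, 3.65 and 4.04 on day 3 and 5.61 and 5.78 on day 5. ME was above CE on each day (1.09 ± 0.15 log2 units on day 0, 1.13 ± 0.15 on day 3 and 1.32 ± 0.15 on day 5). COL23A1 was called on day 0 and on no later day, with 8.66 and 9.43 TPM in ME, against 3.13 and 3.43 in CE on day 0 (1.23 ± 0.15). On day 3 it had 0.435 and 0.448 TPM in ME, against 0.233 and 0.264 in CE.

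COL4A1, COL4A2, COL11A1, COL12A1, COL8A1, LAMB2 and COL1A1 were called on days 3 and 5 and not on day 0. COL4A1 had 18.6 and 18.5 TPM in ME on day 0, 32.3 and 29.8 on day 3 and 36.2 and 38.1 on day 5. Its CE libraries held 10.2 and 10.6 on day 0, 10.1 and 11.8 on day 3 and 12.5 and 14.2 on day 5. ME was above CE on every day, day 0 included (0.78 ± 0.22 log2 units on day 0, 1.43 ± 0.22 on day 3 and 1.42 ± 0.22 on day 5). COL4A2 had 13.98 and 14.6 TPM in ME on day 0, 23.1 and 21.4 on day 3 and 28.4 and 31.2 on day 5. In CE the values were 8.27 and 8.96 on day 0, 7.60 and 8.44 on day 3 and 9.10 and 10.2 on day 5. The order was that of COL4A1, with 0.67 ± 0.11 log2 units on day 0, 1.37 ± 0.11 on day 3 and 1.53 ± 0.11 on day 5. COL12A1 had 3.32 and 3.41 TPM in ME on day 0, 26.1 and 27.8 on day 3 and 15.4 and 16.0 on day 5. CE gave 2.50 and 2.42 on day 0, 6.43 and 7.81 on day 3 and 5.22 and 5.86 on day 5. The extracts lay close on day 0 and far apart later (0.33 ± 0.14 log2 units on day 0, 1.79 ± 0.14 on day 3 and 1.35 ± 0.14 on day 5). COL1A1 had 157 and 168 TPM in ME on day 0, 347 and 297 on day 3 and 164 and 155 on day 5. The CE libraries had 129 and 131 on day 0, 129 and 144 on day 3 and 73.0 and 84.0 on day 5. ME was the higher on every day (0.32 ± 0.14 log2 units on day 0, 1.23 ± 0.14 on day 3 and 1.01 ± 0.14 on day 5). COL1A2 had 125 and 117 TPM in ME, against 63.7 and 69.7 in CE on day 3 and was not called on any day (0.85 ± 0.15). COL11A1 had 20.1 and 22.3 TPM in ME, against 7.58 and 10.0 in CE on day 3 (1.19 ± 0.17). COL8A1 had 7.51 and 7.97 TPM in ME, against 2.88 and 3.46 in CE on day 3 (1.07 ± 0.19). On day 0 it had 0.426 and 0.391 TPM in ME, against 0.164 and 0.183 in CE (0.26 ± 0.19). The log2(TPM + 1) scale draws differences of such low values towards 0, so the lack of a day 0 call does not show a smaller ratio. The day 3 call of COL11A1 was lost with only the groups compared in the fit (adjusted p = 0.0623, limma, Benjamini-Hochberg), and that of COL8A1 with a pseudocount of 0.1 (adjusted p = 0.114). Without the first day 3 CE library COL8A1 stood at 0.97 on day 3, and without the first day 5 CE or ME library COL1A1 stood at 0.91 or 0.98 on day 5.

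Other laminins than LAMA5 were among the day 3 calls. LAMB2 had 143 and 121 TPM in ME, against 38.0 and 46.7 in CE on day 3. LAMC1 had 62.8 and 62.6 TPM in ME, against 23.4 and 26.6 in CE. LAMB1 had 61.1 and 60.6 TPM in ME, against 25.0 and 28.0 in CE, and LAMA1 11.5 and 10.7 TPM in ME, against 4.21 and 4.49 in CE. ME was well above CE for each of them, at 1.62 ± 0.21 log2 units for LAMB2, 1.29 ± 0.15 for LAMC1, 1.17 ± 0.11 for LAMB1 and 1.18 ± 0.15 for LAMA1. In the same order they stood at 0.39 ± 0.21, 0.13 ± 0.15, 0.38 ± 0.11 and 0.34 ± 0.15 on day 0, and at 1.26 ± 0.21, 0.99 ± 0.15, 0.96 ± 0.11 and 0.62 ± 0.15 on day 5. COL5A1 (1.06 ± 0.17), COL5A2 (1.30 ± 0.23) and COL3A1 (1.25 ± 0.33) were called on day 3 and on no other day, and COL4A6 on day 5 (1.10 ± 0.15). Without the first day 3 CE library COL5A1 stood at 0.97. COL6A1, COL6A2, COL9A3 and COL26A1 were not called on any day, with day 5 changes of 0.52 ± 0.12, 0.07 ± 0.14, 0.99 ± 0.14 and 0.24 ± 0.09. The adjusted p of the calls was 1.76e-07 to 1.04e-04 on day 0, 1.35e-08 to 0.0108 on day 3 and 3.16e-09 to 4.88e-04 on day 5 (limma, Benjamini-Hochberg). On day 5 the library numbers of the second ME library and of all SNE, CBNE and PE libraries lie apart from the other day 5 libraries. Without that second ME library 13 genes were called on day 5, and 11 without the first.

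Whether the difference between ME and CE itself changed by day was tested as an interaction of extract and day. Between day 3 and day 0 it grew for 3 of 51 genes and shrank for 1, against 3.44% and 0.190% of all genes. Over protein-coding genes the shares were 5.30% and 0.133%, so the number that grew was near background. It grew by 1.45 ± 0.20 log2 units for COL12A1, 1.23 ± 0.29 for LAMB2 and 1.17 ± 0.22 for LAMC1, and changed by -1.02 ± 0.21 for COL23A1 (adjusted p 8.96e-05 to 0.0111, limma, Benjamini-Hochberg). The ME libraries of LAMC1 stood at 62.8 and 62.6 TPM on day 3, against 33.1 and 36.9 on day 0, and its CE libraries at 23.4 and 26.6 on day 3, against 31.6 and 32.3 on day 0. The ME libraries of LAMB2 stood at 143 and 121 TPM on day 3, against 101 and 110.2 on day 0, and its CE libraries at 38.0 and 46.7 on day 3, against 80.0 and 81.2 on day 0. In both genes ME values were higher and CE values lower on day 3. The call of LAMB2 was lost without the first library of day 0 ME, day 3 CE or day 3 ME (adjusted p 0.0560 to 0.0798, limma, Benjamini-Hochberg). Quantile normalisation reduced it to 0.39 and that of LAMC1 to 0.55. COL23A1 came to -0.97 without the first CE or the second ME library of day 0. With a pseudocount of 0.1 it came to -0.80 and was not called (adjusted p = 0.118, limma, Benjamini-Hochberg). Between day 5 and day 0 the ME to CE difference grew for COL8A1 (1.03 ± 0.27) and COL12A1 (1.02 ± 0.20). With a pseudocount of 0.1 COL8A1 came to 0.90 (adjusted p = 0.835, limma, Benjamini-Hochberg). On day 0 it averaged 0.409 TPM in ME and 0.173 in CE. The 2 calls of 51 genes stand against 3.24% of all genes and 4.95% of protein-coding genes, near background. Leaving out any one library left 0 or 1 of these calls. The calls up and down were 1 and 1 for day 3 and 0 and 1 for day 5 with a common median, 1 and 2 on both days with quantile normalisation, and 2 and 3 for day 5 with totals without mitochondrially encoded and structured RNA.

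As a share of TPM, the soluble nuclear extract held more of the collagen and laminin RNAs than CE, and the number of calls depended on the scaling. On the log2(TPM + 1) scale COL4A5 was farthest apart on each day. In SNE against CE, the calls were 26, 32 and 26 higher on days 0, 3 and 5, and 0 lower. Of all genes 30.0%, 30.5% and 35.9% were called higher and 8.66%, 6.64% and 8.17% lower. The median log2 fold change was 1.04, 1.30 and 1.15 over the 51 genes, against 0.53, 0.54 and 0.65 over all genes. With libraries brought to a common median, the median of all genes moved by -0.87, -1.11 and -1.30 log2 units. The calls were then 10 higher and 3 lower on day 0, 10 and 2 on day 3, and 7 and 8 on day 5. With quantile normalisation 12, 16 and 11 were called higher. The counts under these 2 scalings stand without the share of all genes called, so they are not set against a background. On day 5 the extract and the run of library numbers cannot be told apart. The 56 genes took 0.121% ± 0.00272 of SNE on day 0, 0.181% ± 0.00107 on day 3 and 0.180% ± 0.00153 on day 5 (SD, n = 2 each).

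COL4A5 had 53.2 and 55.9 TPM in SNE on day 0, 63.7 and 63.9 on day 3 and 101 and 113 on day 5. Its CE libraries held 4.95 and 5.09 on day 0, 3.65 and 4.04 on day 3 and 5.61 and 5.78 on day 5. Every SNE library stood far above every CE library, by 3.21 ± 0.15 log2 units on day 0, 3.74 ± 0.15 on day 3 and 4.01 ± 0.15 on day 5. COL11A1 had 16.0 and 16.5 TPM in SNE on day 0, 94.5 and 94.8 on day 3 and 56.8 and 62.1 on day 5. In CE the values were 1.83 and 1.94 on day 0, 7.58 and 10.0 on day 3 and 4.73 and 5.05 on day 5. Here too no extracts overlapped, at 2.58 ± 0.17 log2 units on day 0, 3.30 ± 0.17 on day 3 and 3.36 ± 0.17 on day 5. COL25A1, a transmembrane collagen of neurons with 485 kb of intron, had 15.2 and 17.4 TPM in SNE, against 0.504 and 0.530 in CE on day 5 (3.51 ± 0.20). COL1A1 and LAMB2, whose introns are short, lay closer together on day 0, but COL7A1, with 20.1 kb of intron, did not (2.31 ± 0.22). COL1A1, with 8.53 kb of intron, had 108 and 95.2 TPM in SNE, against 129 and 131 in CE on day 0, and 283 and 274 TPM in SNE, against 129 and 144 in CE on day 3. Its SNE libraries were below CE on day 0 and above on day 3, at -0.36 ± 0.14 and 1.03 ± 0.14 log2 units. The day 3 value came to 0.95 without the first CE library and to -0.08 with a common median. LAMB2, with 5.14 kb of intron, had 92.0 and 88.5 TPM in SNE, against 80.0 and 81.2 in CE on day 0, and 156 and 147 TPM in SNE, against 38.0 and 46.7 in CE on day 3 (0.16 ± 0.21 and 1.82 ± 0.21). LAMA5, with 45.1 kb of intron, was called on each day and had 188 and 183 TPM in SNE, against 30.3 and 29.6 in CE on day 3 (2.59 ± 0.12). Spearman's rho between intron length and the SNE to CE change over the 51 genes was 0.58 for day 0, 0.28 for day 3 and 0.55 for day 5. Over 14972 protein-coding genes it was 0.66, 0.65 and 0.69. In ME against CE it was 0.16, -0.20 and -0.06 over the 51 genes, against 0.57, 0.51 and 0.53 over the protein-coding genes. These correlations are across genes that share libraries, and the values include intronic reads, whose part was not tested.

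**Figure D4:**
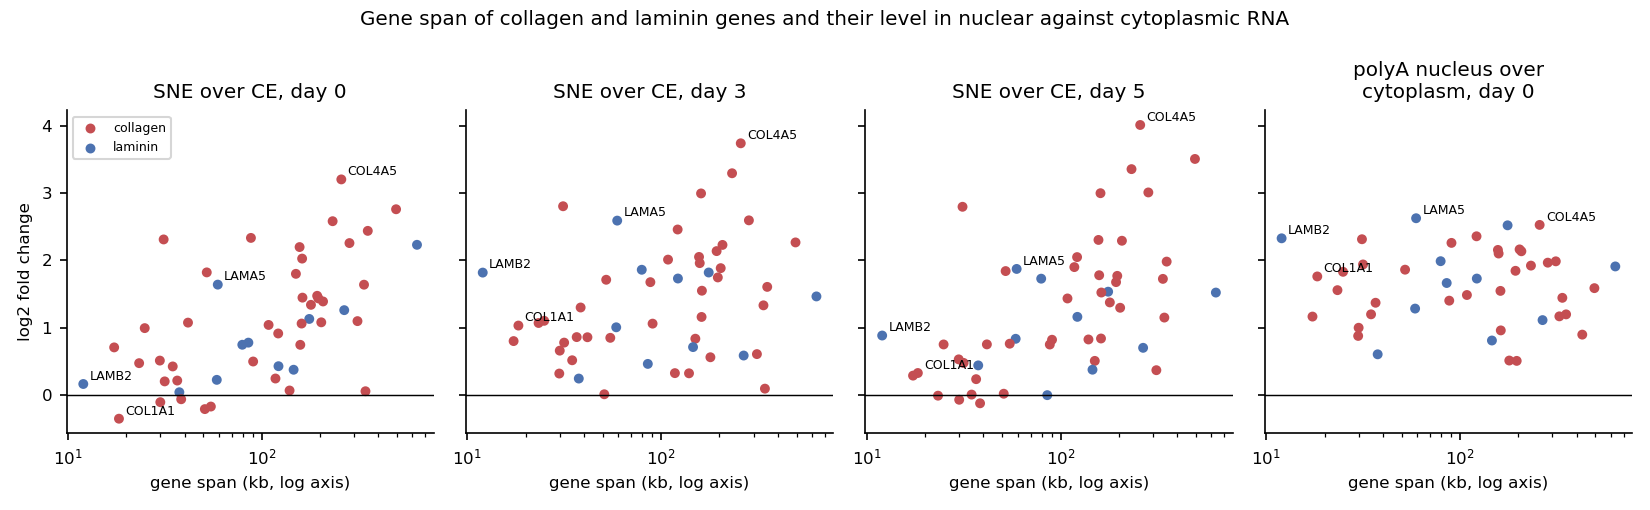
Log2 fold change of SNE over CE on days 0, 3 and 5 and of polyA nucleus over polyA cytoplasm on day 0 against the span of the gene (kb, log axis), 1 point per collagen (red) or laminin (blue) gene tested. COL4A5 is the highest point in each SNE panel, and in polyA RNA every gene lies above 0.

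In polyA RNA of day 0, whose values count exons, all 44 genes tested had a nuclear level above the cytoplasmic level. Of these, 36 were called higher in the nucleus and 0 lower, against 30.0% and 6.22% of all 16667 genes. The median log2 fold change was 1.70, against 0.50 over all genes. With a common median, which moved the median of all genes by -0.56, 25 were called higher and 0 lower, without a share of all genes to set beside them. Summed, the 56 genes took 0.413% ± 0.00463 of nuclear TPM and 0.126% ± 0.00580 of cytoplasmic TPM (SD, n = 2 each). LAMA5 had 292 and 299.5 TPM in the nucleus, against 44.3 and 49.9 in the cytoplasm. Its change was the largest of the 44 genes on the log2(TPM + 1) scale (2.63 ± 0.07 log2 units). By the ratio of mean TPM it came to 6.28, under COL7A1 at 6.97, COL12A1 at 6.91 and COL6A3 at 6.84. Of the chains that pair with it, LAMB2 had 249 and 248 TPM in the nucleus, against 47.3 and 50.3 in the cytoplasm (2.33 ± 0.05). LAMB1 had 119.9 and 125 TPM in the nucleus, against 28.5 and 31.8 in the cytoplasm (1.99 ± 0.07), and LAMC1 427 and 433 TPM in the nucleus, against 125 and 133 in the cytoplasm (1.73 ± 0.04). No compartments overlapped for these laminins, and the same held for LAMA1 with 161 and 161 TPM in the nucleus, against 26.4 and 28.0 in the cytoplasm (2.52 ± 0.05).

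Among collagens in polyA RNA, COL6A1 had 437 and 439 TPM in the nucleus, against 144 and 152 in the cytoplasm (1.56 ± 0.04). This was the highest nuclear level over exons of the 56 genes. COL4A1 had 254 and 253 TPM in the nucleus, against 55.3 and 61.4 in the cytoplasm, and COL4A2 207 and 209.6 TPM in the nucleus, against 46.0 and 47.4 in the cytoplasm. COL4A5 had 71.7 and 71.4 TPM in the nucleus, against 10.6 and 12.6 in the cytoplasm, and COL4A6 50.6 and 50.0 TPM in the nucleus, against 11.8 and 12.5 in the cytoplasm. All 4 were called, at 2.10 ± 0.06 log2 units for COL4A1, 2.14 ± 0.04 for COL4A2, 2.53 ± 0.09 for COL4A5 and 1.97 ± 0.06 for COL4A6. COL1A1 had 117 and 119 TPM in the nucleus, against 31.6 and 36.9 in the cytoplasm (1.76 ± 0.08), and COL12A1 15.6 and 16.3 TPM in the nucleus, against 2.17 and 2.44 in the cytoplasm (2.36 ± 0.11). COL18A1 had 277 and 292 TPM in the nucleus, against 99.5 and 102 in the cytoplasm (1.48 ± 0.05). Nuclear libraries lay above cytoplasmic ones in each of these. COL26A1 had 262 and 266 TPM in the nucleus, against 180.0 and 192 in the cytoplasm. It had the highest cytoplasmic level of the 56 genes and the lowest change of the 44 tested (0.50 ± 0.05), and was not called. COL6A1 (144 and 152 TPM) and LAMC1 (125 and 133 TPM) came next in the cytoplasm. The other genes not called were COL8A2 (1.00 ± 0.09), COL13A1, COL24A1, COL11A2, LAMA4, LAMB3 and COL28A1, and the called ones went down to 1.11 ± 0.18 for LAMA3. The adjusted p of the calls was 3.34e-06 to 0.00216 (limma, Benjamini-Hochberg, 2 residual degrees of freedom). Spearman's rho of the change was -0.04 with intron length and 0.55 with transcript length over the 44 genes, against 0.12 and 0.38 over 12953 protein-coding genes, all from these 4 libraries.

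The SNE to CE difference itself was called as changed between day 5 and day 0 for 8 genes, 5 upwards (5.63% of all genes) and 3 downwards (1.53%). COL8A1 had 16.1 and 16.6 TPM in SNE, against 1.11 and 1.23 in CE on day 5, and 1.37 and 1.53 TPM in SNE, against 0.164 and 0.183 in CE on day 0, a growth of 1.94 ± 0.27 log2 units. COL12A1 (1.14 ± 0.20), COL4A1 (1.04 ± 0.31), COL6A6 (1.66 ± 0.37) and COL19A1 (1.10 ± 0.19) also grew. COL9A1 had 1.53 and 1.44 TPM in SNE, against 0.505 and 0.454 in CE on day 5, and 20.4 and 21.4 TPM in SNE, against 3.10 and 3.60 in CE on day 0, a change of -1.59 ± 0.28. COL4A3 (-1.30 ± 0.34) and COL4A4 (-1.19 ± 0.30) were also called as changed downwards on the log2(TPM + 1) scale, which the ratios of TPM do not show. COL4A4 had 0.996 and 1.01 TPM in SNE, against 0.125 and 0.117 in CE on day 5, and 6.31 and 6.23 TPM in SNE, against 0.739 and 0.829 in CE on day 0, so that SNE over CE was 8.30 on day 5 and 7.99 on day 0. COL4A3 had 0.358 and 0.519 TPM in SNE, against 0.00538 and 0.0194 in CE on day 5, where CE had 1 and 4 reads, and 4.08 and 3.80 TPM in SNE, against 0.421 and 0.416 in CE on day 0. The ratio of SNE to CE was thus no smaller on day 5 for either gene. The 5 that grew had higher day 5 than day 0 values in INPUT and the 3 called downwards had lower ones, and on the log2(TPM + 1) scale a difference is drawn towards 0 in a gene near 1 TPM. The call of COL4A1 was lost when any of 7 of the 8 libraries was left out, with an adjusted p of up to 0.106 (limma, Benjamini-Hochberg). With a pseudocount of 0.1 the calls were 3 upwards and 0 downwards, and with a common median 2 upwards and 6 downwards. At the pseudocount of 0.1 COL9A1 came to -1.16 (adjusted p = 0.0554, limma, Benjamini-Hochberg), COL4A3 to -0.71 (adjusted p = 0.721), COL4A4 to -0.53 (adjusted p = 0.898) and COL8A1 to 1.20 (adjusted p = 0.438), none of them called.

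The chromatin-bound and pellet extracts held a set of GC-rich collagen and laminin RNAs at levels far above those of CE, on fewer reads. In PE on days 3 and 5, genes of lower GC content such as COL11A1 and COL4A5 were high as well. In CBNE against CE, 19 genes were called higher and 3 lower on day 0, 25 and 0 on day 3, and 18 and 3 on day 5. Of all genes 14.9%, 25.9% and 17.6% were called higher and 27.8%, 18.3% and 26.6% lower. In PE against CE, 15 were called higher and 4 lower on day 0, 32 and 0 on day 3, and 21 and 0 on day 5. Of all genes 8.09%, 25.3% and 21.4% were called higher and 26.8%, 8.47% and 6.21% lower. With a common median, which moved the median of all genes by 0.61 log2 units in day 0 PE and by 0.91 in day 5 CBNE, 26 and 36 genes were called higher there and 0 lower. It moved the median of all genes by -0.96 in day 3 PE and -0.89 in day 5 PE, where 16 and 9 were then called higher and 1 lower on each day. In day 0 CBNE it gave 27 higher and 0 lower, and quantile normalisation gave 31 and 0 in day 0 PE and 26 and 1 in day 5 CBNE. For these other scalings the share of all genes called is not given, so the counts lack a background. Apart from PE on day 5 these comparisons were added after values had been seen. COL7A1 had 151 and 95.8 TPM in CBNE on day 0, 296 and 281 on day 3 and 57.5 and 34.9 on day 5. CE gave 2.85 and 3.60 on day 0, 2.54 and 2.43 on day 3 and 2.10 and 2.07 on day 5. Behind these CBNE values were 140 and 76 reads on day 0, 549 and 635 on day 3 and 29 and 21 on day 5. In PE, COL7A1 had 126 and 95.8 TPM on day 0, 166 and 145 on day 3 and 52.3 and 47.1 on day 5. No CBNE or PE library of COL7A1 came near a CE library. The changes were 4.85 ± 0.22 log2 units on day 0, 6.38 ± 0.22 on day 3 and 3.89 ± 0.22 on day 5 in CBNE, and 4.72 ± 0.22, 5.49 ± 0.22 and 4.04 ± 0.22 in PE.

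LAMA5 had 639 and 466 TPM in CBNE on day 0, 1063 and 1054 on day 3 and 314 and 318 on day 5. The CE libraries had 42.0 and 45.1 on day 0, 30.3 and 29.6 on day 3 and 47.0 and 54.6 on day 5. The CBNE values rest on 1125 and 704 reads on day 0, 3753 and 4527 on day 3 and 301 and 364 on day 5. In PE it had 702 and 516 TPM on day 0, 723 and 749 on day 3 and 277 and 283 on day 5. All of its CBNE and PE libraries stood above all CE libraries, in CBNE by 3.62 ± 0.12 log2 units on day 0, 5.10 ± 0.12 on day 3 and 2.62 ± 0.12 on day 5. COL9A3 had 271 and 234 TPM in CBNE on day 0, 714 and 761 on day 3 and 114 and 127 on day 5. Its CE libraries held 20.9 and 20.8 on day 0, 26.5 and 30.0 on day 3 and 15.9 and 18.4 on day 5. Again no extracts overlapped. COL26A1 had 102 and 123 TPM in CBNE, against 6.97 and 7.41 in CE on day 5, and 24.1 and 23.5 in PE. It was above CE by 2.62 ± 0.09 log2 units on day 0, 4.11 ± 0.09 on day 3 and 3.79 ± 0.09 on day 5 in CBNE. COL4A1 and LAMC1 ran the other way in the day 0 extracts. COL4A1 had 2.77 and 4.23 TPM in CBNE and 5.95 and 2.34 in PE, against 10.2 and 10.6 in CE. These values rest on 13 and 17 reads in CBNE and 37 and 12 in PE. COL4A2, the partner of COL4A1, was not lower there. It had 15.6 and 11.8 TPM in CBNE and 12.6 and 13.1 in PE, against 8.27 and 8.96 in CE. LAMC1 had 14.9 and 9.66 TPM in CBNE and 17.5 and 11.9 in PE, against 31.6 and 32.3 in CE. COL1A2 was called lower in day 0 PE (-1.31 ± 0.15) and in day 5 CBNE (-1.88 ± 0.15). With quantile normalisation, a common median or totals without mitochondrially encoded and structured RNA, 0 genes were called lower in CBNE or PE on day 0. Without the second day 0 PE library, COL4A1 came to -0.72 and LAMC1 to -0.83, and 1 lower call was left in PE.

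Within this family the change followed the GC content of the transcripts with a larger rank correlation than over protein-coding genes. The 21 tested genes with a transcript GC of 60% or more, a split chosen after values were seen, gave 15 higher and 0 lower in CBNE on day 0, 20 and 0 on day 3, and 11 and 0 on day 5. The 30 genes under 60% gave 4 higher and 3 lower, 5 and 0, and 7 and 3. In PE the GC-rich genes gave 15, 17 and 11 higher and 0 lower, and the others 0 higher and 4 lower on day 0, 15 higher on day 3 and 10 on day 5. COL11A1, with a transcript GC of 47.3%, changed in PE by 0.90 ± 0.17, 2.60 ± 0.17 and 2.59 ± 0.17 log2 units on days 0, 3 and 5. COL4A5, at 50.9%, changed by 0.57 ± 0.15, 2.61 ± 0.15 and 2.41 ± 0.15. On day 5 LAMA5 stood at 2.44 ± 0.12 and COL9A3 at 1.74 ± 0.14. Spearman's rho between transcript GC and the CBNE to CE change was 0.56, 0.73 and 0.29 over the 51 genes, against 0.17, 0.21 and -0.02 over 14972 protein-coding genes. For PE it was 0.61, 0.50 and 0.25, against 0.22, 0.02 and -0.14. These values are across genes that share libraries. Transcript GC leaves out the introns, whose reads the total RNA levels include. A single read on 1 kb was worth 13.8 to 61.8 TPM in CBNE, 3.37 to 30.8 in PE and 0.707 to 1.81 in the deep libraries, and the part of depth and GC content in the high values was not tested. In polyA nucleus against cytoplasm 16 of 19 GC-rich genes were called higher, and 20 of the 25 others.

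**Figure D5:**
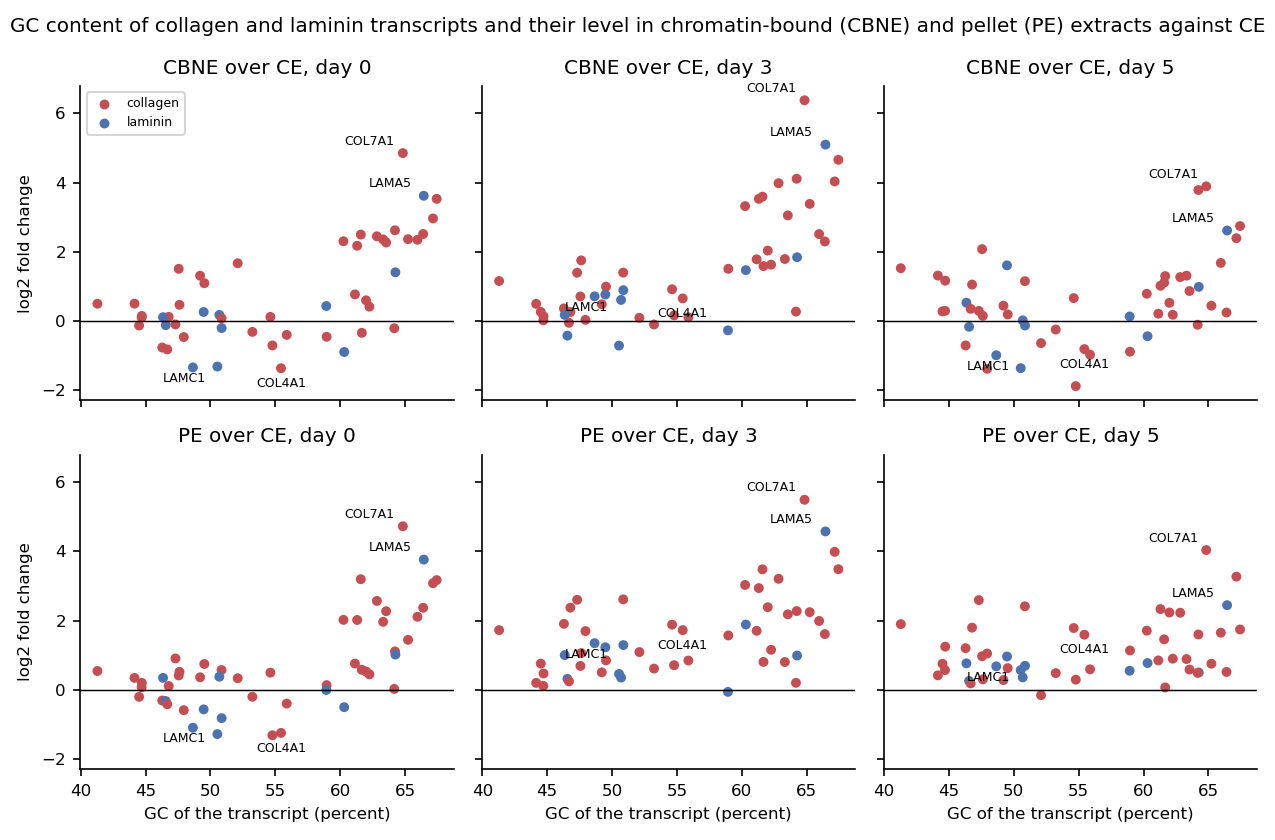
Log2 fold change of CBNE over CE (top) and PE over CE (bottom) on days 0, 3 and 5 against the GC content of the representative transcript (percent), 1 point per collagen (red) or laminin (blue) gene tested. COL7A1 and LAMA5 lie at the GC-rich end and high in each panel, and COL4A1 and LAMC1 lie below 0 in both day 0 panels.

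The genes that work with collagens and laminins were followed with lists chosen by function. Of 29 tested genes for collagen folding, modification, processing and cross-linking, 1 was called higher and 2 lower in INPUT on day 3, and 2 higher and 3 lower on day 5, against day 0. Of all genes 4.06% were called higher and 3.38% lower on day 3, and 6.15% and 6.67% on day 5, so these shares are near the background. LOX, the lysyl oxidase that cross-links fibrils, had 1.82 and 1.77 TPM on day 0, 128 and 144 on day 3 and 40.9 and 39.0 on day 5. It peaked on day 3, as COL8A1 and COL11A1 did (5.61 ± 0.48 log2 units for day 3 over day 0 and 3.87 ± 0.48 for day 5 over day 0). Of 22 tested genes for other basement membrane and matrix proteins, 7 were called higher and 0 lower on day 3, and 12 and 1 on day 5, that is 31.8% and 54.5% higher. FN1, which encodes fibronectin, had 30.2 and 30.3 TPM on day 0, 279 and 302 on day 3 and 1252 and 1264 on day 5. It was higher on each later day (3.22 ± 0.09 and 5.33 ± 0.09 over day 0). FBN2, the embryonic fibrillin, was called on both days (3.06 ± 0.15 and 4.18 ± 0.15). LUM, a proteoglycan that binds collagen fibrils, had 49.6 and 49.1 TPM on day 5, against 0.120 and 0.213 on day 3. Of 14 tested receptors, 4 were called higher and 0 lower on day 3, and 6 and 1 on day 5 (28.6% and 42.9% higher). Among them were the collagen-binding integrin chain ITGA2 (2.46 ± 0.16 and 2.54 ± 0.16), the collagen receptor kinase DDR2 (2.21 ± 0.18 and 1.36 ± 0.18) and the shared beta chain ITGB1 (1.36 ± 0.16 and 1.57 ± 0.16).

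In ME against CE on day 3, 11 of the 22 other matrix genes were called higher and 0 lower, beside 17 of 51 collagens and laminins, and 1 of 29 folding and processing genes was called higher and 2 lower. Of all genes 1.00% were called higher and 6.82% lower, so the folding and processing genes called lower are at about the background share. AGRN, the basement membrane proteoglycan agrin, had 140.4 and 134 TPM in ME, against 35.4 and 36.9 in CE (1.89 ± 0.15 log2 units). HSPG2, perlecan, had 44.5 and 42.4 TPM in ME, against 12.4 and 12.9 in CE (1.70 ± 0.12). ME was above CE for both. PPIB, a prolyl isomerase of the endoplasmic reticulum, had 223 and 172 TPM in ME, against 460.0 and 458 in CE (-1.23 ± 0.32). CRTAP, its partner in prolyl hydroxylation, had 30.0 and 24.4 TPM in ME, against 63.6 and 68.6 in CE (-1.26 ± 0.31). Both were lower in ME, while MIA3, needed for loading collagen into transport carriers, had 26.8 and 26.9 TPM in ME, against 10.7 and 12.2 in CE (1.16 ± 0.16). In polyA RNA, 15 of 21 matrix genes, 10 of 26 folding and processing genes and 4 of 13 receptors were called higher in the nucleus and 0 of any list lower. That is 71.4%, 38.5% and 30.8%, against 30.0% of all genes, which the share of the receptors is close to.

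At the low end, 16 of the 56 genes peaked between 1 and 10 TPM in INPUT and 15 stayed under 1 TPM on every day. COL22A1 was listed at 0 in all 6 INPUT and all 6 CE libraries, while polyA RNA listed 7.06 and 6.84 TPM in the nucleus, against 2.32 and 2.77 in the cytoplasm. COL10A1, named here after its values were seen because it lies wholly under genes on the other strand, was listed at 0 in the 4 polyA libraries and reached 0.123 TPM in INPUT. The transmembrane chain COL13A1 had 2.26 and 2.33 TPM on day 0, 2.33 and 2.81 on day 3 and 2.52 and 2.84 on day 5. COL25A1 had 2.34 and 2.53 TPM on day 0, 2.64 and 3.34 on day 3 and 3.08 and 3.35 on day 5, and neither was called between days in INPUT. COL6A6 had 0.0567 and 0.0649 TPM on day 0, 0.0655 and 0.166 on day 3 and 1.06 and 1.01 on day 5, and COL19A1 0.393 and 0.329 on day 5, against 0.0292 and 0.0223 on day 0.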

How the data were processed

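Total RNA of 36 libraries and polyA RNA of 4 libraries was given as deposited gene tables in TPM, made by the authors before deposit. The tools named are Salmon 1.3.0, featureCounts 1.6.2, GATK and HISAT2 2.0.5, with the build hg38 and no role for any, per the submitters' processing notes. Whole reads recovered from TPM with GENCODE 29 lengths showed that the total RNA values were divided by the gene span and the polyA values by summed exons. Column names matched the titles in the labels for all columns.

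From these, limma 3.58.1 was fitted to log2(TPM + 1) with a group-means model over all 36 libraries (18 residual degrees of freedom) or the 4 polyA libraries (2), with a trended, robust prior, on genes of at least 1 TPM in at least 2 libraries. P-values were Benjamini-Hochberg adjusted over all genes tested. The fit was tested on simulated data for INPUT day 5 against day 0 only. It recovered 65% of changes of 2 log2 units and 85% of those of 3, with 9 false calls over 24735 genes. A gene without a call may thus have changed. Folds on this scale understate changes of genes near 1 TPM. Of 21 comparisons, 5 (PE on days 0 and 3 and CBNE on all days, against CE) were added after values were seen, and the members and gene lists were chosen with earlier results of these data known. The rule for named genes took those averaging at least 10 TPM in INPUT or a polyA group, the collagen IV pairs, any other member called, and up to 4 called genes of a pathway list in each direction; 1 such gene is not reported here. A count model was not run on TPM. Numbers of reads cover counting error only. Alternatives were a pseudocount of 0.1, no filter, quantile normalisation, a common median, totals without mitochondrially encoded and structured RNA, a replicate block, only the groups compared, and each library left out. Replicate numbers did not pair the libraries.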

Additional observations from a re-analysis of the deposited data

Results flagged for a closer look

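These values are differences of a difference between extracts on a later day and on day 0, in log2 units with SE, each past an adjusted p of 0.05 for the interaction (limma, Benjamini-Hochberg), and no explanation was weighed. Their libraries share the CE groups.

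The ME to CE difference grew between day 0 and day 3 for COL12A1 by 1.45 ± 0.20 (adjusted p 8.96e-05). It grew for LAMB2 by 1.23 ± 0.29 (adjusted p 0.0111) and for LAMC1 by 1.17 ± 0.22 (adjusted p 0.00150). For COL23A1 it changed by -1.02 ± 0.21 (adjusted p 0.00374). On day 5 against day 0 it grew for COL8A1 by 1.03 ± 0.27 (adjusted p 0.0252) and for COL12A1 by 1.02 ± 0.20 (adjusted p 0.00289).

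The SNE to CE difference grew between day 0 and day 5 for COL8A1 by 1.94 ± 0.27 (adjusted p 5.54e-05) and for COL6A6 by 1.66 ± 0.37 (adjusted p 0.00460). COL12A1 came to 1.14 ± 0.20 (adjusted p 6.51e-04), COL19A1 to 1.10 ± 0.19 (adjusted p 5.50e-04) and COL4A1 to 1.04 ± 0.31 (adjusted p 0.0269). On the log2(TPM + 1) scale the difference was called as smaller for COL4A4, at -1.19 ± 0.30 (adjusted p 0.00961), COL4A3, at -1.30 ± 0.34 (adjusted p 0.0120), and COL9A1, at -1.59 ± 0.28 (adjusted p 5.66e-04). These 3 are the genes of these 8 whose INPUT values were lower on day 5 than on day 0. COL6A6, COL19A1, COL4A3, COL4A4 and COL9A1 stood near or under 1 TPM in INPUT on day 5, where this scale draws differences towards 0. With a pseudocount of 0.1, COL4A4 came to -0.53 (adjusted p 0.898), COL4A3 to -0.71 (adjusted p 0.721) and COL9A1 to -1.16 (adjusted p 0.0554), and COL8A1, among the genes that grew, to 1.20 (adjusted p 0.438), none of them called. In TPM, SNE over CE for COL4A4 was 8.30 on day 5 and 7.99 on day 0, and for COL4A3 this ratio was no smaller on day 5 than on day 0.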

How the results depend on the processing

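Counts are of collagen and laminin genes called, and are given here without the share of all genes called under the same setting. With a pseudocount of 0.1, the lower calls were 9 for INPUT day 5 against day 0, 12 for CE and 13 for ME day 5 against day 0, and 6 for CBNE on day 0 and on day 5. INPUT day 5 against day 3 gave 4 higher and 8 lower, ME against CE on day 0 gave 8 higher, the ME to CE difference of day 3 minus day 0 gave 0 lower, and the SNE to CE difference of day 5 minus day 0 gave 3 higher and 0 lower. With only the groups compared in the fit, INPUT day 5 against day 3 gave 1 higher, PE on day 0 gave 0 lower and CBNE on day 5 gave 1 lower. That setting is the main fit for polyA, which has only these groups.

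With quantile normalisation, ME against CE gave 17 higher on day 0 and 19 on day 5. SNE against CE gave 12 higher on day 0, 16 on day 3 and 11 on day 5, with 2 lower on day 5. The ME to CE difference gave 1 higher and 2 lower both for day 3 minus day 0 and for day 5 minus day 0, and the SNE to CE difference gave 3 higher. PE on day 0 gave 31 higher and 0 lower, CBNE 0 lower on day 0 and 1 on day 5.

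With a common median, CE day 5 against day 0 gave 12 higher. SNE against CE gave 10 higher and 3 lower on day 0, 10 and 2 on day 3, and 7 and 8 on day 5. PE gave 26 and 0 on day 0, 16 and 1 on day 3, and 9 and 1 on day 5. CBNE gave 0 lower on day 0 and 36 higher and 0 lower on day 5. The ME to CE difference gave 1 higher for day 3 minus day 0 and 0 higher and 1 lower for day 5 minus day 0, and the SNE to CE difference 2 and 6. In SNE on day 3, COL1A1 turned to -0.0801, COL6A1 to -0.0418, COL6A3 to -0.0514 and COL9A3 to -0.00936, and on day 5 COL5A1 to -0.00443 and LAMC1 to -0.14. With totals without mitochondrially encoded and structured RNA, ME day 5 against day 0 gave 10 lower, ME against CE 40, 32 and 30 higher on days 0, 3 and 5, PE 25 higher and 0 lower on day 0 and 33 higher on day 5, CBNE 0 lower on day 0, and the ME to CE difference of day 5 minus day 0 gave 3 lower. These settings move the median of all genes, and the cause of single changes was not tested.

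Leaving out 1 library gave 1 to 2 higher for INPUT day 5 against day 3. It gave 0 to 1 lower for the ME to CE difference of day 3 minus day 0, and 0 to 1 higher and 0 to 1 lower for that of day 5 minus day 0. PE on day 0 gave 1 to 5 lower and CBNE 3 to 5. With 1 library left in a group, that library is assumed to vary like the other groups. Over single genes, 48 leave-one-out values lost their call and 1336 kept it. With the replicate block 334 of 334 calls of single genes held, and the counts of calls were those without it. Same-numbered libraries did not deviate together (correlations of -0.043 to 0.071 over 153 pairs of groups, 0 of them over 0.1), so the numbers do not pair the libraries.

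Depth limits the CBNE and day 0 PE values of genes at a few TPM, such as the 13 and 17 reads of COL4A1 in day 0 CBNE.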

Other observations

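The order of the genes differed between the day 0 tables, whose values have different denominators. COL26A1 had 262 and 266 TPM in the nucleus and 180.0 and 192 in the cytoplasm in polyA RNA, and 27.1 and 26.4 TPM in SNE and 9.12 and 9.41 in CE in total RNA. It ranked above COL6A1 in polyA cytoplasm, and in CE below COL6A1, which had 107 and 113 TPM there. COL14A1 had 90.7 and 93.4 TPM in the nucleus and 22.4 and 22.6 in the cytoplasm in polyA RNA, and 8.79 and 9.35 TPM in SNE and 3.63 and 3.79 in CE. COL4A3, with 62.4% of its span under genes on the other strand, had 0.0391 and 0 TPM in the nucleus and 0 and 0 in the cytoplasm in polyA RNA, and 4.08 and 3.80 TPM in SNE and 0.421 and 0.416 in CE in total RNA. The part of gene span, strand and overlapping genes in these differences was not tested.

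The comparisons of ME, SNE, CBNE and PE on a day all use the same 2 CE libraries, so their values are not independent of each other.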
